A study of Mus musculus with 5 samples.

Results

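The smooth muscle contractile genes described here are 10 of the 21835 genes in a mouse RNA-seq table: the actins Acta2 and Actg2, the myosin chains Myl9 and Myh11, the actin-binding genes Tagln, Cnn1, Cald1 and Lmod1, and the tropomyosins Tpm1 and Tpm2. They were chosen by name, with the difference between the groups of this study already known, so their values and fold changes are given as a description without a test. The cells were cancer-associated fibroblasts (CAFs) from mouse lung, kept as a cultured line. The 2 CAF-vec samples, labelled as wild-type control, carried the empty lentiviral vector, and the 3 CAF-200 samples carried that vector with a miRNA cluster (miR-429, miR-200a and miR-200b). Both kinds of culture were grown in the same medium and had been selected with G418 for weeks after infection, and the labels name no separate clones or lines. The paper that reported these cells names the vector of the miRNA cluster pLVX-Hyg and states no selecting drug. The labels give no age, sex or time course, and do not say whether samples of a group came from separate cultures, so the spread between them may be technical.

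Contraction of smooth muscle runs on filaments of actin and myosin. Calcium-bound calmodulin activates myosin light chain kinase, which phosphorylates the regulatory light chain and lets the myosin heads pull on actin. Tropomyosin, caldesmon and calponin sit along the actin filament, where caldesmon and calponin restrain that interaction. Fibroblasts that take on part of this program are called myofibroblasts, and Acta2, which encodes α-smooth muscle actin, is their usual marker in wounds, fibrosis and tumor stroma. Serum response factor (SRF), bound to CArG boxes and aided by myocardin or the actin-sensing MRTF cofactors, drives many of these genes.

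The miRNAs that distinguish the groups are shown because their seeds (bases 2 to 8, in capitals) define the sites searched for in the contractile genes. The sequences are from RefSeq, and all 3 lie on the minus strand of chromosome 4 in GRCm38.p6.
miR-200b-3p, chr4:156055685-156055706: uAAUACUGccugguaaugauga
miR-429-3p, chr4:156053916-156053937: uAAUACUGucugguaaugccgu
miR-200a-3p, chr4:156054911-156054932: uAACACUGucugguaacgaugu
The seeds of miR-200b and miR-429 were identical and pair with CAGTATT, whereas that of miR-200a pairs with CAGTGTT. Neither 7-base match was found on the transcript strand of any annotated 3′-UTR of the 10 contractile genes. Among the 12055 genes tested with an annotated 3′-UTR, taking the longest of each, 15.7% held CAGTATT, 20.8% held CAGTGTT and 30.3% held either. The longest 3′-UTR of the contractile genes ran from 80 bases in Actg2 to 2245 bases in Cald1, against a median of 1174 bases over those 12055 genes. The absence of a match says only that these letters are not in these annotated 3′-UTRs.

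Levels are given as deposited, in CPM (read counts scaled to a common library total), a share of all reads that is not corrected for gene length. Fold changes are differences of the mean log2(CPM + 0.5) with their standard errors (SE), from limma across the 12175 genes that reached 0.5 CPM in 2 or more samples. A gene counted as called when its adjusted p (Benjamini-Hochberg) was below 0.01 and its log2 fold change lay beyond 1 in either direction. By this rule 2.37% of the genes tested were called higher in CAF-200 and 2.35% lower (289 and 286 genes), and after centring each sample on its median the numbers were 365 and 228. In the set, 9 of 10 genes reached the level needed for the test. Of these, 5 were called higher and 0 lower, which repeats the way they were chosen.

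Acta2 (chr19:34241090-34255590, minus strand, GRCm38) was the most abundant, also per length, of the genes that differed strongly. It measured 92.8 and 126 CPM in CAF-vec, against 661, 653 and 706 CPM in CAF-200. The lowest CAF-200 value was 5.20 times the highest CAF-vec value, and the log2 fold change was 2.63 ± 0.15 (SE, n = 2 and 3). The paper reported the other direction for α-SMA protein, with less staining in CAF-200, and listed α-SMA among the markers that miR-200 suppressed. It also reported lower RT-qPCR levels of most CAF markers and less gel contraction with CAF-200. Why the RNA values here differ was not tested. In RNA from whole cultures, more cells that express a gene and more RNA per cell cannot be told apart.

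Tagln (chr9:45929619-45936058, minus strand), which encodes transgelin, an actin-crosslinking protein of smooth muscle, had the largest fold change of the set. Its values were 55.1 and 36.0 CPM in CAF-vec and 330, 325 and 382 CPM in CAF-200, and its log2 fold change was 2.94 ± 0.19 (SE). The groups were far apart, although the CAF-vec samples themselves differed by 1.53 times. The 3′ end of Tagln overlaps that of Pcsk7, a proprotein convertase gene on the opposite strand, which measured 21.5 and 16.5 CPM in CAF-vec against 14.7 to 16.01 CPM in CAF-200.

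Cnn1 (chr9:22099216-22109630, plus strand), which encodes basic calponin, an inhibitor of the actomyosin ATPase, was low in the control cells. It measured 3.38 and 4.35 CPM in CAF-vec and 32.0, 29.1 and 27.7 CPM in CAF-200, and the log2 fold change was 2.79 ± 0.13 (SE). Every CAF-200 value was at least 6.37 times either CAF-vec value, the widest gap among the 10 genes.

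Myl9 (chr2:156775420-156781658, plus strand) encodes the regulatory light chain that myosin light chain kinase phosphorylates. Its values were 7.08 and 3.998 CPM in CAF-vec and 37.0, 34.8 and 42.7 CPM in CAF-200, and its log2 fold change was 2.72 ± 0.23 (SE). Here the CAF-vec samples were 1.77 times apart, with the first above the second, as for Tagln.

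Actg2 (chr6:83512905-83536265, minus strand), the γ-actin of gut and other visceral smooth muscle, was near the lower limit of the test. It measured 0.382 and 0.529 CPM in CAF-vec and 3.17, 3.03 and 4.23 CPM in CAF-200. The log2 fold change of 2.05 ± 0.18 (SE) depended on the constant added before taking logarithms, and was 1.61 with 1 CPM and 2.68 with 0.1 CPM added. Actg2 passed the filter through its CAF-200 values.

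**Figure D1:**
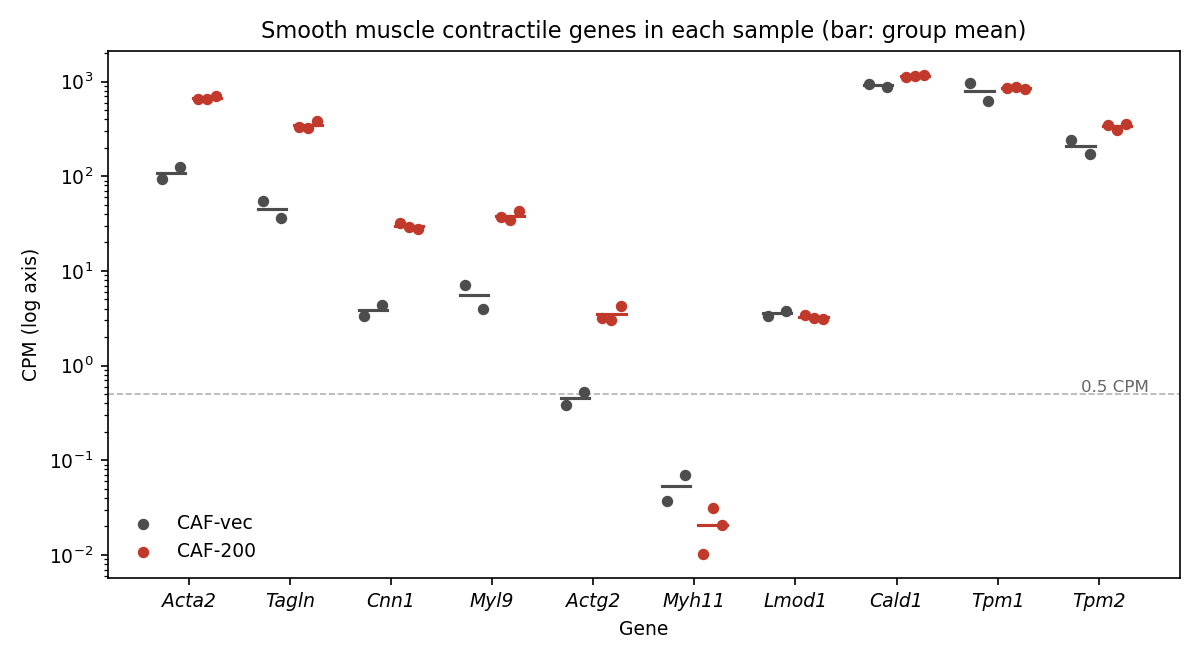
Level of each of the 10 contractile genes in each sample, in CPM on a log axis; gray points are the 2 CAF-vec samples, red points the 3 CAF-200 samples, and short bars the group means. Acta2, Tagln, Cnn1, Myl9 and Actg2 lie several-fold higher in CAF-200, Cald1 and Tpm2 lie slightly higher without overlap, Tpm1 and Lmod1 overlap, and Myh11 stays under 0.1 CPM.

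The other 5 genes did not share that difference. Myh11 (chr16:14194535-14291372), the smooth muscle myosin heavy chain and the gene held to define the differentiated cell, was close to absent from every sample. It measured 0.0373 and 0.0692 CPM in CAF-vec and 0.0103, 0.0311 and 0.0208 CPM in CAF-200. It did not reach the level tested, so no fold change is given.

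Lmod1 (chr1:135324807-135368065), which encodes leiomodin 1, a nucleator of actin filaments in smooth muscle, was 3.37 and 3.77 CPM in CAF-vec and 3.39, 3.19 and 3.14 CPM in CAF-200. Its groups overlapped, with a log2 fold change of -0.12 ± 0.12 (SE).

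The 3 remaining genes also serve the cytoskeleton of cells outside muscle, and all of them were abundant in both groups. Cald1, which encodes caldesmon, measured 945 and 877 CPM in CAF-vec and 1127, 1141 and 1184 CPM in CAF-200, and its log2 fold change was 0.34 ± 0.11 (SE). Tpm2, β-tropomyosin, measured 244 and 171 CPM in CAF-vec and 347, 309 and 356 CPM in CAF-200, and its log2 fold change was 0.72 ± 0.17 (SE). For Cald1 every CAF-200 value was at least 1.19 times either CAF-vec value, and for Tpm2 at least 1.27 times.

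Tpm1, α-tropomyosin, was 965 and 619 CPM in CAF-vec and 867, 881 and 845 CPM in CAF-200. All its CAF-200 values fell between the 2 CAF-vec values, and the log2 fold change of 0.16 ± 0.20 (SE) became -0.16 without the second CAF-vec sample and 0.48 without the first. Over the genes tested, 24.3% had every CAF-200 value above both CAF-vec values and 37.3% had every one below. In the set these numbers were 7 and 0 of the 9 genes tested. Myh11, which was too low to be tested, had every CAF-200 value below both CAF-vec values.

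The median log2 fold change over all 10 genes, with Myh11 at its unfiltered value, was 1.38, against -0.09 over all genes tested. That median falls in a gap, because 5 genes lay at 2.05 or above and the other 5 at 0.72 or below. Ranked by fold change among the 12175 genes tested, Tagln was at place 12, Cnn1 at 16, Myl9 at 19, Acta2 at 23 and Actg2 at 61. Tpm2 followed at place 825, Cald1 at 2261, Tpm1 at 3474 and Lmod1 at 6362.

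The calls rested on all 3 CAF-200 samples being present. Without any 1 of them, between 0 and 1 of all genes tested were called, although between 3816 and 4058 had an unadjusted limma p under 0.05, and 0 of the contractile genes were called. The fold changes kept their direction: over the 5 fits that each left out 1 sample, the log2 fold change ranged from 2.42 to 2.85 for Acta2, 2.63 to 3.24 for Tagln, 2.63 to 2.95 for Cnn1, 2.35 to 3.10 for Myl9 and 1.92 to 2.16 for Actg2. For Acta2, Tagln, Cnn1 and Myl9 the ends of these ranges came from leaving out 1 or the other CAF-vec sample.

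The CAF-vec samples did not rank the contractile genes alike. Tagln, Myl9, Tpm1, Tpm2 and Cald1 were higher in the first CAF-vec sample, and Acta2, Cnn1, Actg2 and Lmod1 in the second. The ratio of Acta2 to Tagln reads was therefore 1.68 and 3.49 in the CAF-vec samples, but 2.00, 2.01 and 1.85 in the CAF-200 samples. By contrast, the ratio of Myl9 to Tagln reads was 0.128 and 0.111 in CAF-vec and 0.112, 0.107 and 0.112 in CAF-200, so these genes kept their proportion in both groups. The ratio of Cnn1 to Acta2 reads was likewise close between the CAF-vec samples, at 0.0364 and 0.0346, and was 0.0484, 0.0445 and 0.0393 in CAF-200. Differences of this size between the CAF-vec samples were common in the table. At least 0.5 on the log2 scale separated them for 24.8% of the genes tested and for 4 of the 9 contractile genes (Tagln, Myl9, Tpm1 and Tpm2).

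Within CAF-200 the samples lay closer together than within CAF-vec. Across the genes tested, log2 differences had an SD of 0.49 for the CAF-vec pair, against 0.19 to 0.20 for the 3 possible pairs of CAF-200 samples. A gene listed at 0 in 1 CAF-200 sample was at 0 in all 3 (6127 genes, with 0 exceptions), whereas 1205 genes were at 0 in only 1 CAF-vec sample. The values of the CAF-200 samples near 0 may therefore not be independent of each other, and the part this plays in the small CAF-200 spread was not tested.

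Levels of different genes were compared per kilobase of exon. In CAF-vec, Tpm1 led with a mean of 122 CPM per kb, followed by Cald1 with 75.7, Tpm2 with 71.4, Acta2 with 49.8 and Tagln with 22.9. Cald1 and Tpm2 overlapped between samples in that order, and the other neighbours among these 5 did not. In CAF-200, Acta2 came first with 307 CPM per kb, ahead of Tagln with 174, Tpm1 with 133, Tpm2 with 116 and Cald1 with 95.6, with no overlap between neighbours. With the length of the longest coding transcript, an alternative chosen after the data were seen, Acta2 still came first in CAF-200 (331 CPM per kb), but Tagln (217) then stood below Tpm1 (299) and Cald1 (241).

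Below these stood Myl9, at 4.77 CPM per kb in CAF-vec and 32.9 in CAF-200, and Cnn1, at 1.41 and 10.8. Lmod1 was at 0.904 CPM per kb in CAF-vec and 0.821 in CAF-200, Actg2 at 0.293 and 2.23, and Myh11 at 0.00701 and 0.00273. Among the 12175 genes tested, Acta2 moved from place 1080 by level per kb in CAF-vec to place 198 in CAF-200. Tagln moved from place 2139 to 328 and Myl9 from 6290 to 1486, whereas Tpm1 stood at 464 and 412.

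Each strongly higher gene has close relatives that most cells use. Acta2 made up 1.14% and 1.84% of the CPM per kb of the 6 actin genes in CAF-vec and 8.24%, 8.44% and 8.84% in CAF-200. Even there, the cytoplasmic actins Actb (53.1% on average) and Actg1 (38.3%) made up most of the family. Tagln went from a mean of 16.4% of the transgelin family in CAF-vec to 43.6% in CAF-200, Cnn1 from 0.334% to 3.396% of the calponins, and Myl9 from 0.432% to 2.74% of the regulatory light chains. Tpm2 was 12.1% and 10.2% of the tropomyosins in CAF-vec and 15.9%, 14.3% and 15.9% in CAF-200, and Tpm1 overlapped between groups at 16.6% to 21.4% and 17.0% to 18.2%. Myh11 was at most 0.0142% of the myosin heavy chains in any sample, with Myh9 and Myh10 making up nearly all of that family. These shares describe RNA per length within a family and follow from the levels by which the genes were chosen.

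**Figure D2:**
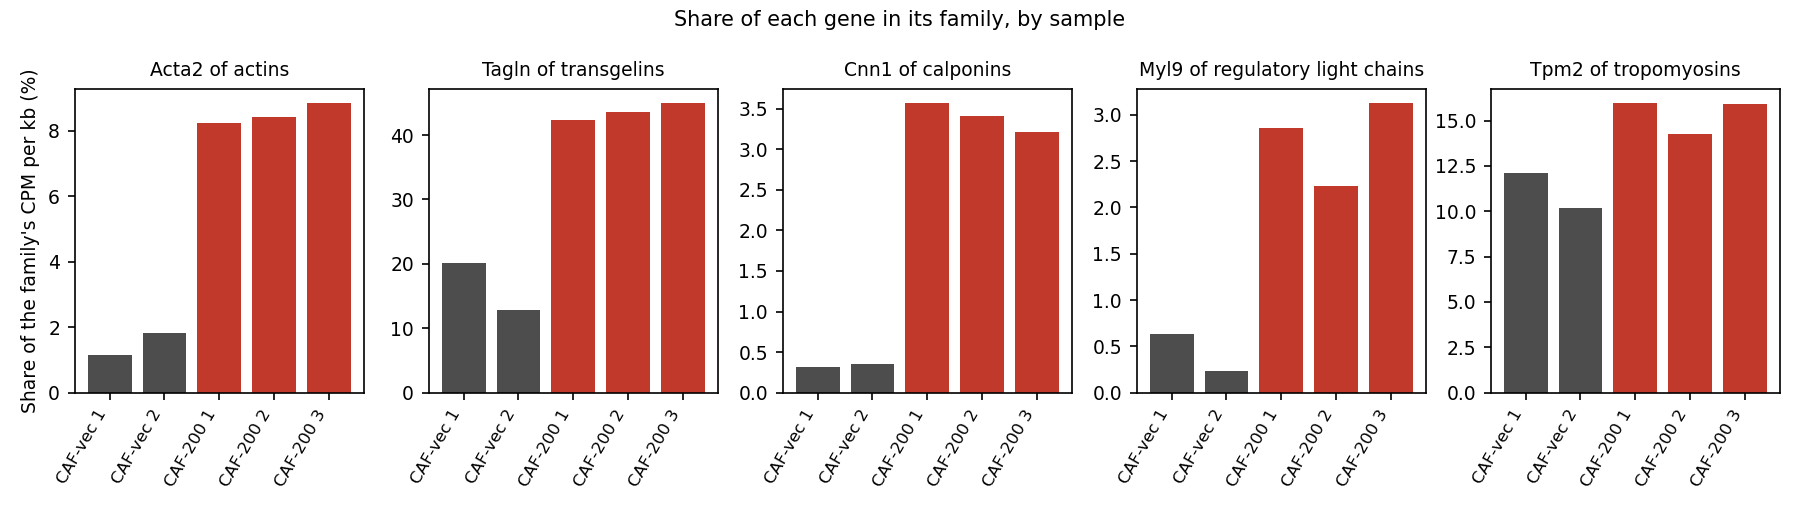
Share of 5 contractile genes in the summed CPM per kb of their own gene family, in percent, for each sample; gray bars are CAF-vec and red bars CAF-200, and each panel has its own axis from 0. The share of Tagln goes from 20.1% and 12.8% in CAF-vec to between 42.4% and 44.9% in CAF-200, and that of Acta2 from under 2% to over 8%.

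The paralogues were listed by gene family, with earlier results of these data known, and were tested in the fit over all genes. Of 21 paralogues, listed under 22 identifiers, 15 identifiers were tested and 0 were called in either direction (2.37% of all genes tested as higher and 2.35% as lower), while 3 were higher and 2 lower at an unadjusted limma p under 0.05, which 17.3% of all genes tested passed as higher and 27.6% as lower. Without the second CAF-vec sample, 3 were called higher and 1 lower, in a fit that called 624 of 12035 genes higher and 906 lower. Without the first, 1 was called higher and 0 lower, in a fit that called 347 of 12032 genes higher and 298 lower. Tagln2, a transgelin found in many cell types, measured 229 and 257 CPM in CAF-vec and 469, 441 and 490 CPM in CAF-200. Its log2 fold change was 0.94 ± 0.11 (SE) with a limma adjusted p of 0.00434. After median centring its log2 fold change was 1.04 and it was called. Cnn2, the calponin of nonmuscle cells, measured 787 and 841 CPM in CAF-vec and 525, 487 and 502 CPM in CAF-200 (log2 fold change -0.69 ± 0.10, limma adjusted p = 0.00805). Both passed the adjusted p alone, as did 4.45% of all genes tested as higher and 5.57% as lower, and neither reached the fold threshold.

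Acta1, skeletal α-actin, measured 0.198 and 0.831 CPM in CAF-vec and 3.26, 2.04 and 2.58 CPM in CAF-200. Its groups were apart by a log2 fold change of 1.68 ± 0.32 (SE), which did not reach the threshold (limma adjusted p = 0.0150). As with Actg2, this value depends on the pseudocount, at 2.35 with 0.1 CPM and 1.28 with 1 CPM. It was called when either CAF-vec sample was left out, at 1.21 without the first and 2.15 without the second. The cytoplasmic actins had log2 fold changes of -0.15 ± 0.20 for Actb and 0.18 ± 0.14 for Actg1 (SE), past neither threshold. The first turned to 0.09 without the first CAF-vec sample, and the second to -0.02 after quantile normalization.

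The nonmuscle myosin heavy chains were lower in mean but not past the thresholds, with log2 fold changes of -0.63 ± 0.31 for Myh9 and -0.44 ± 0.10 for Myh10 (SE, limma adjusted p = 0.168 and 0.0219). Myh9 was 1121 CPM in the first CAF-vec sample and 529 in the second, and the CAF-200 values of 479 to 530 CPM overlapped with the second. Its log2 fold change was -0.09 without the first CAF-vec sample and -1.17, past both thresholds, without the second. The light chains Myl6 and Myl12a had log2 fold changes of -0.03 ± 0.15 and -0.20 ± 0.11 (SE). Myl12b is listed under 2 identifiers, and 24.0% of the read-length windows (100 bases) of one and 89.3% of the other also occur in another gene's transcripts, Myl12a or the other identifier. Its log2 fold changes of 0.63 ± 0.67 and 0.03 ± 0.27 (SE) are therefore uncertain, as is the split of reads with Myl12a. The same search found 0 shared windows for each of the 10 contractile genes, so each such window of their transcripts was found in that gene alone. Of the remaining paralogues, Cnn3 (0.21 ± 0.14), Tpm3 (-0.16 ± 0.23), Tpm4 (0.26 ± 0.10) and Tmod3 (0.01 ± 0.08, all SE on the log2 scale) did not pass either threshold.

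Among the other structural genes of smooth muscle reported here, 1 was called higher in CAF-200. Of 12 such genes, 9 were tested, 1 was called higher and 0 lower (2.37% and 2.35% of all genes tested). At an unadjusted limma p under 0.05, 4 were higher and 2 lower (17.3% and 27.6% of all genes tested). The gene called was Fhl1, a LIM-domain protein of muscle, which measured 17.1 and 14.0 CPM in CAF-vec and 40.4, 40.7 and 42.9 CPM in CAF-200 (log2 fold change 1.39 ± 0.11, limma adjusted p = 0.00255). The groups were apart by more than the spread within either, and the call did not hold without any 1 CAF-200 sample. The median log2 fold change over the 9 genes tested was 0.021, within a range of -0.71 to 1.39. Desmin (Des), the intermediate filament of muscle, was at 0.410 and 0.730 CPM in CAF-vec and 0.352, 0.760 and 0.652 CPM in CAF-200, with overlap, and is named here after its values were seen.

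Genes that control contraction were mostly not called. Of 22, 17 were tested, 0 were called higher and 1 lower (2.37% and 2.35% of all genes tested). At an unadjusted limma p under 0.05, 1 was higher and 7 lower (17.3% and 27.6% of all genes tested). The gene called lower was Prkg1, the cGMP-dependent kinase that relaxes smooth muscle, which measured 7.92 and 6.96 CPM in CAF-vec and 2.88, 3.31 and 3.15 CPM in CAF-200 (log2 fold change -1.13 ± 0.12, limma adjusted p = 0.00385). This call did not hold without any 1 CAF-200 sample, and without the second CAF-vec sample 2 genes of the list were called lower, beside 906 of all 12035 genes in that fit. By adjusted p alone, which 4.45% of the genes tested passed as higher and 5.57% as lower, 2 of the 17 were lower. The other was Dapk3, a kinase of the myosin light chain and of myosin phosphatase, at 115 and 114 CPM in CAF-vec and 72.9, 69.8 and 68.5 CPM in CAF-200 (log2 fold change -0.70 ± 0.08, limma adjusted p = 0.00466), named after its values were seen. All CAF-200 values were below both CAF-vec values for 8 of the 17 genes (37.3% of all genes tested) and above both for 2 (24.3%). Mylk itself, the myosin light chain kinase, measured 6.40 and 5.73 CPM in CAF-vec and 4.601, 4.61 and 4.17 CPM in CAF-200, which did not reach the threshold (limma adjusted p = 0.0450), and is likewise named after its values were seen.

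**Figure D3:**
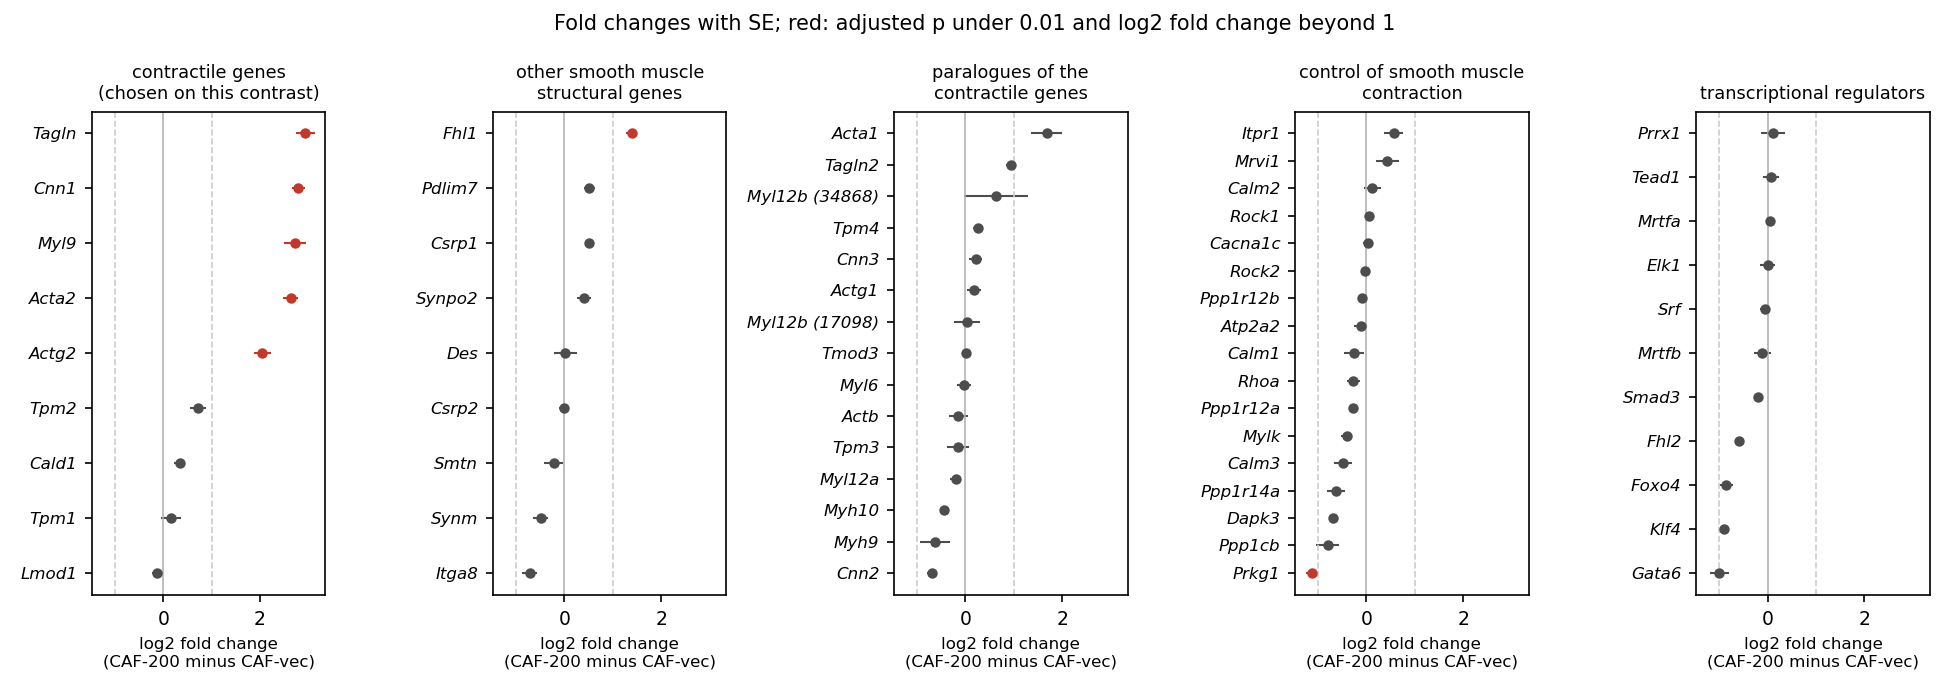
Log2 fold change (CAF-200 minus CAF-vec) with its SE for the 9 contractile genes tested and for the tested genes of 4 lists; dashed lines mark -1 and 1, red points pass both the adjusted p of 0.01 and the fold threshold, and digits after Myl12b are the end of its identifier. Outside the contractile genes, Fhl1 passes as higher and Prkg1 as lower.

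Of 13 listed factors known to act on smooth muscle genes, 11 were tested and 0 were called in either direction (2.37% of all genes tested as higher and 2.35% as lower). At an unadjusted limma p under 0.05, 0 were higher and 4 lower, beside 17.3% and 27.6% of all genes tested, and without the second CAF-vec sample 2 were called lower, as were 906 of all 12035 genes in that fit. Their median log2 fold change was -0.11, and all CAF-200 values were below both CAF-vec values for 5 of the 11 (37.3% of all genes tested) and above both for 0 (24.3%). Srf measured 53.4 and 53.1 CPM in CAF-vec and 49.5, 49.1 and 54.4 CPM in CAF-200, with overlap (log2 fold change -0.06 ± 0.09, turning to 0.03 after median centring and 0.05 after quantile normalization). Mrtfa was 76.1 and 78.9 CPM in CAF-vec and 81.1, 78.1 and 82.1 CPM in CAF-200 (log2 fold change 0.05 ± 0.08). Myocd, the myocardin gene, was at 0.0552 and 0.239 CPM in CAF-vec, against 0.0707 to 0.0819 CPM in CAF-200, under the level tested.

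By adjusted p alone, 2 of the 11 regulators were lower, beside 5.57% of all genes tested. Klf4, a factor known to repress smooth muscle genes, measured 74.4 and 72.1 CPM in CAF-vec and 38.6, 39.7 and 39.5 CPM in CAF-200 (log2 fold change -0.89 ± 0.08, limma adjusted p = 0.00284). Fhl2, a LIM-domain cofactor that can bind SRF, measured 233 and 223 CPM in CAF-vec and 159, 149 and 145 CPM in CAF-200 (log2 fold change -0.59 ± 0.09, limma adjusted p = 0.00863). Neither reached the fold threshold, and Srf, Mrtfa, Myocd, Klf4 and Fhl2 are named after their values were seen.

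Because SRF acts through CArG boxes, the RefSeq promoter windows (250 bases before to 50 after the start, GRCm38.p6) were searched for them. A CArG box is a pair of C bases, 6 bases of A or T, and a pair of G bases, and reads the same on both strands; 1 G or C among the 6 was also allowed. Of all 32851 promoters, 1.63% held an exact box and 9.98% a box with up to 1 G or C. Promoters of 7 of the 10 contractile genes were in the table, 8 in all; Tagln, Actg2 and Myh11 were not in it. The promoters of Acta2 and Myl9 held boxes, and that of Cnn1 held 0. The boxes found are shown in capitals with 10 bases on each side, on the strand of the gene.
Acta2, chr19:34255438-34255467, minus strand: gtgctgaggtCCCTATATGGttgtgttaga
Acta2, chr19:34255388-34255417, minus strand: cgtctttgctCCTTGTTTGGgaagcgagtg
Myl9, chr2:156775293-156775322, plus strand: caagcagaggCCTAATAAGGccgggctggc
Myl9, chr2:156775355-156775384, plus strand: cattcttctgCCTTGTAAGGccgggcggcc
Counted from the RefSeq start of each window, the boxes of Acta2 began 84 and 34 bases before position 34255373 and each had 1 G or C in the core. GENCODE starts the gene farther out, at position 34255590, so these boxes lie inside its GENCODE span. In Myl9, counted from position 156775464, the box that began 161 bases before the start was exact and the one at 99 bases had 1 G or C. Both also lie before the GENCODE start of Myl9 at 156775420. The windows of Cnn1, Lmod1, Cald1, Tpm1 and Tpm2 held none of these letters, which says nothing of boxes farther away or of SRF binding.

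The genes whose values over the 5 samples were most like those of Acta2 were found by the root mean square difference of log2(CPM + 0.5), each gene centred on its mean. Outside the set they were Npnt, an integrin ligand of the matrix (0.081), Kcnj15, a potassium channel (0.087), Stc1, a secreted glycoprotein (0.088), the vomeronasal receptor Vmn2r79 (0.1004) and Spp1, which encodes osteopontin (0.1004). Npnt measured 12.9 and 15.6 CPM in CAF-vec and 81.5, 80.6 and 88.0 CPM in CAF-200. Vmn2r79 measured 0.134 and 0.299 CPM in CAF-vec, against 3.19 to 3.99 CPM in CAF-200, so it passed the filter on low values only through CAF-200. At such levels the pseudocount lowers the difference, and likeness to Acta2 rests on it: the ratio of the group means was 16.1 for Vmn2r79 and 8.95 for Stc1 (0.758 and 1.17 CPM in CAF-vec), against 6.16 for Acta2. Spp1 measured 302 and 340 CPM in CAF-vec and 1848, 1744 and 2024 CPM in CAF-200. Of the contractile genes, Cnn1 was the nearest to Acta2 (0.128, place 6 of all genes tested), followed by Actg2 (0.313, place 34), Tagln (0.364, place 46) and Myl9 (0.383, place 53). Tagln and Myl9 were higher in the first CAF-vec sample, where Acta2 was lower.

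**Figure D4:**
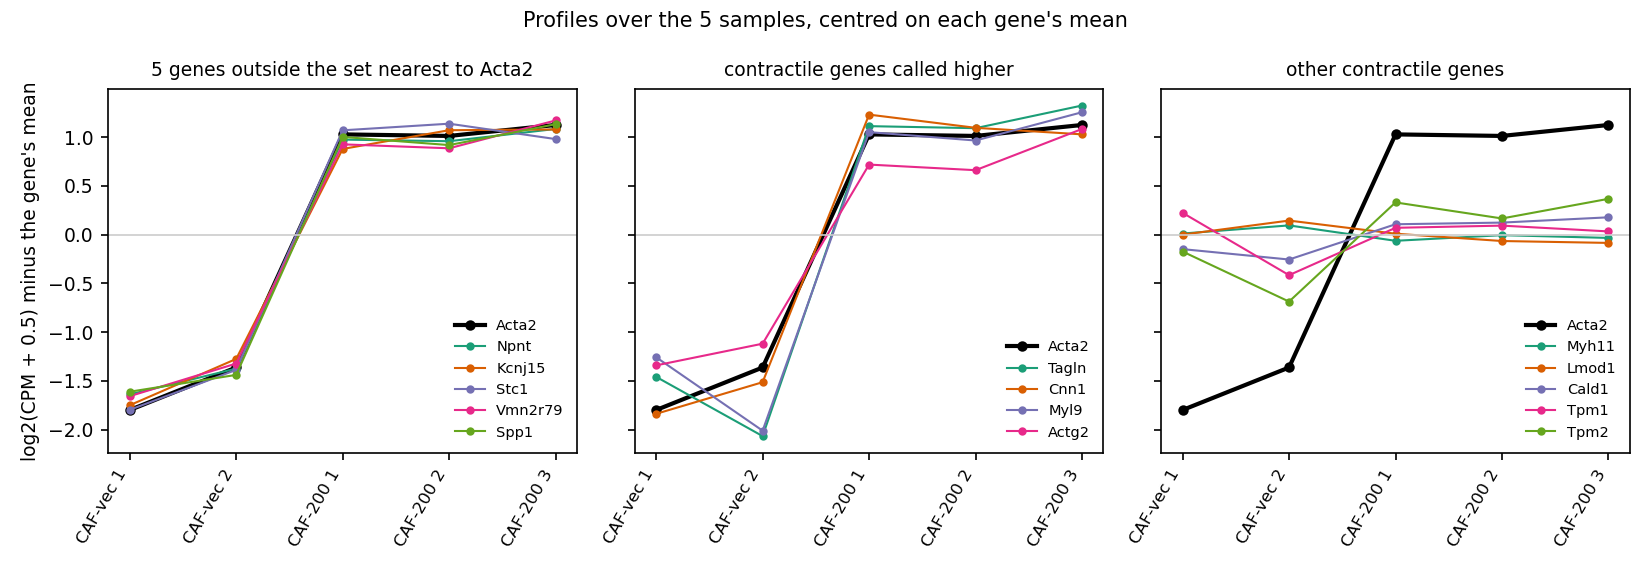
Values of log2(CPM + 0.5) in the 5 samples, minus each gene's mean; the black line is Acta2 in every panel, colored lines are the 5 nearest genes outside the set, the other contractile genes called higher, and the remaining contractile genes, and the lines only join the values of 1 gene. Tagln and Myl9 cross Acta2 between the CAF-vec samples, and the genes of the last panel stay within 0.7 of their mean.

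The label of a fibroblast was checked against markers. The 10 fibroblast markers summed to 17031 and 13165 CPM in CAF-vec, against 10587 to 11565 CPM in CAF-200. Nearly all of the sum was Col1a1, Col1a2, Vim and S100a4, and Fap, a marker of cancer-associated fibroblasts, was between 0.0684 and 0.391 CPM, under the filter on low values in every sample. Of 8 mural cell markers, which would mark pericytes and vascular smooth muscle, 3 (Kcnj8, Abcc9 and Higd1b) were at 0 in every sample and Rgs5 was at most 0.0905 CPM, whereas Cspg4 (2.66 to 5.28 CPM), Mcam (3.05 to 3.47 CPM) and Notch3 (3.57 to 6.10 CPM) were present at a low level in every sample. Their sum, nearly all of it Pdgfrb, which fibroblasts also use, was 228 and 229.5 CPM in CAF-vec, against 185 to 197 CPM in CAF-200. The 6 endothelial markers summed to at most 0.541 CPM and the 7 epithelial ones to at most 0.421 CPM in any sample. The 6 leukocyte markers summed to between 4.72 and 7.42 CPM, nearly all of it Cd68 (2.25 to 5.01 CPM) and Csf1r (2.29 to 4.97 CPM), with Ptprc at most 0.0404 CPM. As known targets of miR-200, Zeb1 (log2 fold change -0.36 ± 0.11, limma adjusted p = 0.0504) and Zeb2 (-0.23 ± 0.19, limma adjusted p = 0.374) did not pass the threshold. The miRNAs themselves were not analysed here.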

How the data were processed

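Polyadenylated RNA of 2 CAF-vec and 3 CAF-200 samples was read in pairs of 100 bases from strand-specific libraries. The paper describes 3 RNA extractions for each group, whereas values of only 2 CAF-vec samples were available. Per the labels, the submitters' processing notes name FastQC, cutadapt, Trimmomatic, STAR, RSEM, edgeR and GRCm38 (mm10), without versions. The authors deposited CPM values after normalization in 1 table, and all 5 columns were used. Whole reads could not be recovered from them, so no count test was run and depth is unknown. The test was limma 3.58.1 (R 4.3.3, variance trend, no covariate), run on log2(CPM + 0.5) for 12175 of 21835 genes. The fit was tried on simulated data with independent samples and the same spread in both groups, unlike the spread seen here. Gene names and exon lengths came from GENCODE M21, which held 21795 of the identifiers. Figures used matplotlib 3.10.9.

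The contractile genes and the 4 lists were chosen with earlier results of these data known; 1 gene of the structural list is not reported here. Named by rule were all 10 genes, list genes past both thresholds, paralogues above the filter, the 5 genes most like Acta2, Zeb1 and Zeb2. Des, Dapk3, Mylk, Srf, Mrtfa, Myocd, Klf4 and Fhl2 were named after their values were seen. The alternatives were other pseudocounts, filters, scalings and thresholds, a replicate block, no variance trend and leaving out each sample.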

Additional observations from a re-analysis of the deposited data

How the results depend on the processing

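The depth of the samples is unknown, and 2 CAF-vec samples limit every comparison. The median log2 fold change of the 10 contractile genes was 1.38 and ranged from 1.30 to 1.46 when 1 sample was left out; it was 1.68 with a pseudocount of 0.1 and 1.16 with a pseudocount of 1. Genes called higher (289) and lower (286) numbered 541 and 677 at a log2 threshold of 0.5, and 436 were lower at an adjusted p of 0.05. Leaving out 1 sample gave 0 to 624 higher and 0 to 906 lower genes, the highest without the second CAF-vec sample and the 0s without a CAF-200 sample. A lone CAF-vec sample was assumed to vary like the CAF-200 samples.

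Nothing in the labels ties same-numbered samples. Deviations of the first pair correlated at 0.25 and of the second at 0.13 across genes, while CAF-vec 2 and CAF-200 3 correlated at 0.12. Deviations of 2 CAF-vec samples mirror each other, so these values cannot tell whether samples were paired. Under a replicate block, 101 genes were called higher and 70 lower, 0 structural genes were higher (Fhl1 was lost) and 0 contraction control genes were lower (Prkg1 was lost). The 5 contractile genes stayed called, which is no independent support because they were chosen with this difference known. Leaving out 1 sample gave 0 to 1 structural genes higher, 0 to 2 contraction control genes lower, 0 to 3 paralogues higher, 0 to 1 paralogues lower and 0 to 2 regulators lower. At a log2 threshold of 0.5, these were 2 contraction control genes lower, 1 paralogue higher, 1 paralogue lower and 2 regulators lower. After median centring 1 paralogue (Tagln2) was higher, and at an adjusted p of 0.05 also 1 (Acta1).

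Of 90 values of the contractile genes under alternatives, 68 moved by less than 1 SD and none of the genes called changed sign. Signs changed only in genes not called. Leaving out 1 sample gave -0.38 to 0.092 for Actb, -0.11 to 0.057 for Myl6, -0.55 to 0.23 for Tpm3, -0.041 to 0.063 for Tmod3, and -0.58 to 1.83 and -0.36 to 0.43 for the identifiers of Myl12b. Quantile normalization gave -0.019 for Actg1, -0.022 for Myl12b and 0.052 for Srf, and median centring 0.068 for Myl6 and 0.034 for Srf. With the longest coding transcript as length, chosen after seeing the data, Acta2 was 6.77% of the actins in CAF-200, Tagln 42.3% of the transgelins and Myl9 1.88% of the regulatory light chains. The causes were not tested.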

Other observations

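Genes of striated muscle were mostly low or absent in both groups. Of 28 such genes, 11 were at 0 in every sample, among them the fate factors Myod1 and Myog, creatine kinase Ckm, titin (Ttn) and α-actinin 2 (Actn2), and 8 were tested. Their summed level was 15.9 to 21.3 CPM in CAF-vec, against 28.6 to 35.8 CPM in CAF-200. Most of the difference came from Tnnt2, cardiac troponin T, which was the 1 gene of the 8 called higher, with 0 called lower (2.37% and 2.35% of all genes tested): it measured 4.54 and 2.23 CPM in CAF-vec and 14.1, 12.9 and 18.4 CPM in CAF-200 (log2 fold change 2.06, limma adjusted p = 0.00738). Acta1 added 2.04 to 3.26 CPM in CAF-200. Troponin I and C genes stayed near 1 CPM or lower apart from Tnnc1, at 1.21 to 2.41 CPM with overlap between groups.

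Of the 9 fibroblast markers tested, 3 were called higher in CAF-200 and 0 lower (2.37% and 2.35% of all genes tested): the small leucine-rich proteoglycans Dcn and Lum and the surface protein Thy1. Dcn measured 7.67 and 8.18 CPM in CAF-vec and 51.0, 61.5 and 56.7 CPM in CAF-200 (log2 fold change 2.75, limma adjusted p = 0.000837). Thy1 measured 85.3 and 111 CPM in CAF-vec and 266, 261 and 277 CPM in CAF-200 (log2 fold change 1.46, limma adjusted p = 0.00290). The collagen I genes moved the other way in mean: Col1a1 was 4613 and 2003 CPM in CAF-vec, against 1543 to 1719 CPM in CAF-200, which did not pass the threshold (limma adjusted p = 0.0982). Of the 4 marker genes called in these lists (Tnnt2, Dcn, Lum and Thy1), 0 were called without any 1 of the CAF-200 samples.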
